A study of Homo sapiens with 4 samples.

Results

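The subject is 10 genes of the Krüppel-like factor (KLF) family, KLF1 to KLF7 and KLF9 to KLF11 without KLF8, picked by gene symbol from 28285 gene rows. Each had 1 row in every table. The tables hold 17 rows with a KLF symbol in all. The cells were derived from the established human embryonic stem cell line H1, in which eGFP (enhanced green fluorescent protein) had been knocked into GATA2, a zinc-finger transcription factor of blood progenitors. Cells of every library were sorted for CD34 and CD31, surface proteins of endothelium, and for lack of CD43, a surface protein of blood cells. The GFP-positive fraction carried the reporter signal and was labelled hemogenic endothelium, and the GFP-negative fraction lacked it and was labelled endothelial cells. All titles also name Cre, and the source name of all 4 samples is hemogenic endothelium, which for the GFP-negative samples differs from their cell type label. The 2 fractions had 2 libraries each, made from total RNA of 1 cell line, and the labels do not say whether the replicates were separate cultures. P-values therefore measure the spread between these libraries, which may be technical.

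KLF proteins are transcription factors with a C-terminal block of C2H2 zinc fingers that binds GC-rich and CACCC sequences. KLF1 is the erythroid factor that switches on globin and red cell membrane genes. KLF2 and KLF4 are endothelial factors that respond to blood flow through the MEKK3-MEK5-ERK5 kinase cascade and MEF2 factors. KLF3 represses transcription through the corepressor CtBP, and KLF10 and KLF11 are early response genes of transforming growth factor beta (TGF-beta) that recruit the corepressor SIN3A.

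Promoter sequences were matched in RefSeq (GRCh38.p14) for 8 of the 10 genes, the exceptions being KLF3 and KLF10. Those of KLF1, KLF2, KLF4 and KLF6 are shown. KLF1 was chosen because it had the largest difference between the fractions. KLF2, KLF4 and KLF6 were chosen because each was higher in replicate 2 than in replicate 1 in both fractions. Each run is the 200 bases before the annotated start, 5′ to 3′ on the gene's strand. KLF1 lies at chr19:12887202-12887401 on the minus strand, KLF2 at chr19:16324626-16324825 on the plus strand, KLF4 at chr9:107489770-107489969 on the minus strand and KLF6 at chr10:3785210-3785409 on the minus strand. Capitals mark a GATA hexamer, a GC box or the MEF2 consensus, on either strand.
KLF1 promoter: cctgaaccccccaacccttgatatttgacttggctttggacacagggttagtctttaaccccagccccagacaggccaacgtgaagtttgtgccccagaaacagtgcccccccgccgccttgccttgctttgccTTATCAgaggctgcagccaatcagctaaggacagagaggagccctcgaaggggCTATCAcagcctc
KLF2 promoter: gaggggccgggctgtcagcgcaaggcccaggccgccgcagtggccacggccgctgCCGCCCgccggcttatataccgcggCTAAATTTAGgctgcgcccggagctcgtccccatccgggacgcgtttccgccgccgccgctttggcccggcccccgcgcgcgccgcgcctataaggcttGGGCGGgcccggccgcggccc
KLF4 promoter: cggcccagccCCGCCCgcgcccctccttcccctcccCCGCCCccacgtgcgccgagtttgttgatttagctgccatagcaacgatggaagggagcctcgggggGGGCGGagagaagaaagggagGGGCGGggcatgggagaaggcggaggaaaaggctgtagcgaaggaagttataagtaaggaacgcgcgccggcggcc
KLF6 promoter: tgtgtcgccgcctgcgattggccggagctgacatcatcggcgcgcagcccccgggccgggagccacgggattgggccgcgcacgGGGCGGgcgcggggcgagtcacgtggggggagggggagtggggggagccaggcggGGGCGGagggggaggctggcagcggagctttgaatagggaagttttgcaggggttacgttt

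The GATA hexamer was GATA with an adenine or thymine before it and an adenine or guanine after it. The GC box was GGGCGG. Both strands of the 250 bases before each start were read. KLF1 held 2 GATA hexamers, whose leftmost bases lie at -66 and -13 from the start. Of 34943 promoters of this length, 22.4% held at least 1. KLF2, KLF4 and KLF6 held 0 GATA hexamers and 4, 4 and 2 GC boxes, against 0 GC boxes in KLF1 and a share of 42.5% of promoters with at least 1. Outside the 4 shown, GC boxes were matched before at least 1 start of each of KLF5, KLF7 and KLF11, and not before that of KLF9. KLF2 alone of the 4 held the MEF2 consensus, as CTAAATTTAG beginning at -120, which 2.8% of promoters held. The GC content of the 200 bases was 57.0% for KLF1, 77.0% for KLF2, 67.0% for KLF4 and 72.5% for KLF6. A match of letters is a description of the sequence and not a measured binding site.

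Levels are given as TPM, a transcript abundance that corrects reads for transcript length and scales each library to a fixed total. From 14730 to 15109 genes reached 1 TPM in a library. TPM keeps no read total. Low values of genes with a single long transcript fell in steps, and if each step is 1 read, then 10 TPM over a transcript of 2000 bases corresponds to 20.8 to 34.8 reads, fewest in GFP-positive replicate 2. The sorted gene GATA2 stood at 302 and 385 TPM in the GFP-positive libraries and 80.2 and 87.3 TPM in the GFP-negative libraries. Endothelial markers were present in every library, summing over 13 genes to 4539 and 4756 TPM in GFP-positive and 8217 and 7341 TPM in GFP-negative cells. CD34, a surface protein that both fractions were sorted for, was lower in GFP-positive cells. Its gene stood at 458 and 536 TPM against 1232 and 1199 TPM (limma adjusted p = 0.0316). SPN, the gene of CD43, stood at 16.9 and 10.2 TPM against 9.66 and 11.05 TPM. PECAM1, the gene of CD31, was sought as an endothelial marker, but no row was matched to it. In RNA from a sorted pool, fewer cells of a type and less RNA per cell cannot be told apart.

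KLF1 was the member with the largest difference towards GFP-positive cells, at 6.13-fold by the means, and KLF7 the member with the largest difference towards GFP-negative cells, at 3.50-fold. Neither passed the threshold over all genes. KLF2 and KLF6 were the most abundant members in both fractions, and their libraries overlapped between the fractions. KLF10 and KLF11 were lower in both GFP-positive libraries than in either GFP-negative library. The remaining KLF3, KLF4, KLF5 and KLF9 had overlapping libraries.

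The test was limma on log2(TPM + 1) over 15425 genes that reached 1 TPM in 2 or more libraries, a filter that all 10 members passed. Of the 10, 0 had a Benjamini-Hochberg adjusted limma p under 0.05, against 0.447% of all genes tested (0.123% higher and 0.324% lower in GFP-positive cells). At an unadjusted limma p under 0.05 there were 2, KLF1 and KLF7, against 14.1% of all genes. For 1 member, KLF1, neither GFP-positive library overlapped with the GFP-negative range and both were above it, against 22.8% of all genes. They lay below for 3 members, KLF7, KLF10 and KLF11, against 21.5% of all genes. The 4 members without overlap thus compare with 44.3% of all genes, a share close to the background. The median log2 fold change of the 10 members was -0.02, beside 0.02 for all genes tested, with 5 members above 0 and 5 below.

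**Figure D1:**
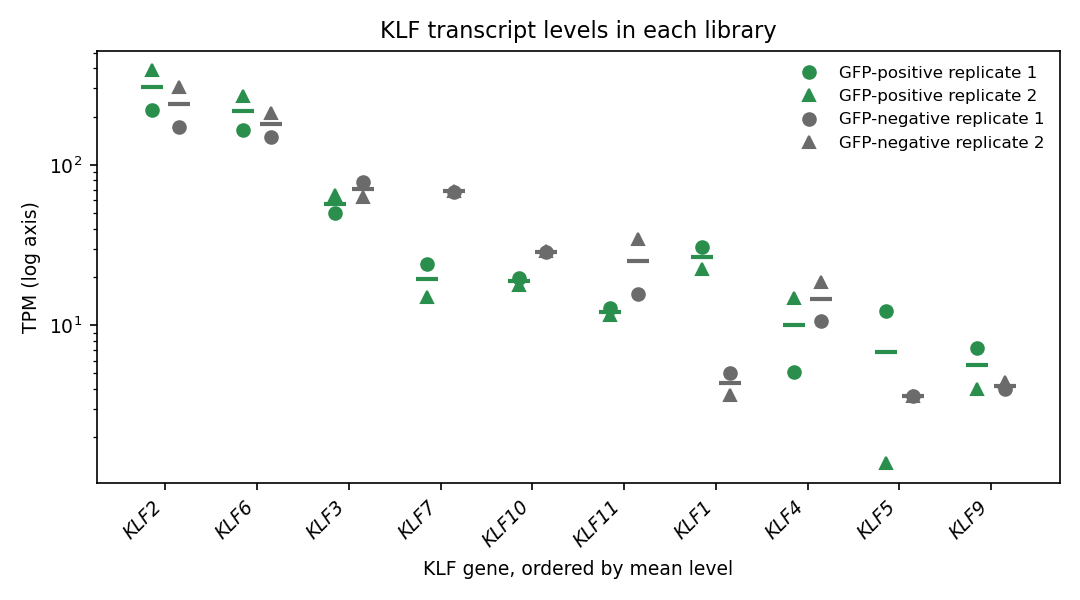
TPM of the 10 KLF genes in each library on a log axis, ordered by mean level; green symbols are GFP-positive and grey symbols GFP-negative libraries, circles replicate 1, triangles replicate 2, and bars the mean of 2 libraries. KLF1 in green (30.9 and 22.4 TPM) stands apart from grey (5.05 and 3.66 TPM), and KLF7 in green (24.1 and 14.9 TPM) from grey (67.4 and 69.1 TPM), while KLF2 and KLF6 overlap.

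KLF1, the erythroid factor (ENSG00000105610), stood at 30.9 and 22.4 TPM in GFP-positive replicates 1 and 2 and at 5.05 and 3.66 TPM in GFP-negative replicates 1 and 2. Both GFP-positive libraries were thus well above both GFP-negative libraries. The means were 26.7 ± 6.01 TPM and 4.36 ± 0.983 TPM (SD, n = 2), a log2 fold change of 2.36 ± 0.38 (SE; 95% interval 1.45 to 3.28). Limma gave an adjusted p of 0.069. If a step is a read, the single annotated transcript of 1611 bases had 77.4 and 37.3 reads in GFP-positive and 14.2 and 8.1 reads in GFP-negative libraries, so the lower values rest on few reads. Limma passed the gene when only genes with a mean above 5 TPM were tested (adjusted p = 0.0449), and with a library left out its adjusted p ran from 0.11 to 0.148.

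Summed markers of erythroid and of some other cell types were higher in GFP-positive cells, as KLF1 was. Of 15 erythroid genes, 11 were tested, of which 11 lay above 0 and 2 rose in limma (0.123% of all genes rose). The gamma-globin gene HBG1 passed the filter through its GFP-positive libraries alone, at 5.45 and 5.03 TPM against 0.9 and 0 TPM, which fixed its sign. SLC4A1, seen only in GFP-negative replicate 2 (0.38 TPM), was not tested. The summed level of the 15 genes was 665 and 441 TPM in GFP-positive against 128 and 117 TPM in GFP-negative cells. The defining marker AHSP, the chaperone of alpha-globin, was listed at 0 in all 4 libraries. Megakaryocyte and platelet markers summed to 202 and 247 TPM against 105 and 119 TPM, with 7 of 8 tested genes above 0 and the platelet chemokine PPBP listed at 0 in all 4 libraries. Mesenchymal markers summed to 1870 and 1836 TPM against 986 and 1220 TPM (9 of 11 above 0), and epithelial markers to 1736 and 1487 TPM against 886 and 1076 TPM (6 of 7 above 0); 0 genes of these 3 lists passed in limma. Pluripotent markers summed to 576 and 473 TPM against 401 and 395 TPM, but only 2 of 6 tested genes lay above 0. Myeloid markers overlapped between the fractions, at 133 and 214 TPM against 143 and 125 TPM. Lymphoid markers summed lower in GFP-positive cells, at 49.2 and 56.9 TPM against 69.1 and 95.6 TPM. Of their 5 tested genes, 2 lay above 0 and 0 passed in limma, with a median log2 fold change of -0.16. The part of cells of any of these types in the KLF1 difference was not tested. In the order of members by mean level, KLF1 was the fourth in GFP-positive cells and the eighth in GFP-negative cells. Its neighbour KLF7 overlapped with it in GFP-positive cells.

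KLF7, a factor best known from neurons and fat cells (ENSG00000118263), stood at 24.1 and 14.9 TPM in GFP-positive replicates 1 and 2 and at 67.4 and 69.1 TPM in GFP-negative replicates 1 and 2. The GFP-negative libraries were close to each other, and both GFP-positive libraries lay far below them. The means were 19.5 ± 6.47 TPM and 68.3 ± 1.22 TPM (SD, n = 2), a log2 fold change of -1.79 ± 0.28 (SE; 95% interval -2.48 to -1.10; limma adjusted p = 0.068). Limma passed it when only genes with a mean above 5 TPM were tested (adjusted p = 0.0393) and without GFP-positive replicate 1 (-2.12; adjusted p = 0.0406). With any other library left out, the limma adjusted p was 0.0906 to 0.212. The ratio of KLF1 to KLF7 in TPM was 1.28 and 1.50 in the GFP-positive libraries and 0.0749 and 0.053 in the GFP-negative libraries. KLF1 was therefore the more abundant transcript per length in GFP-positive cells and the less abundant in GFP-negative cells, in both libraries of each.

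**Figure D2:**
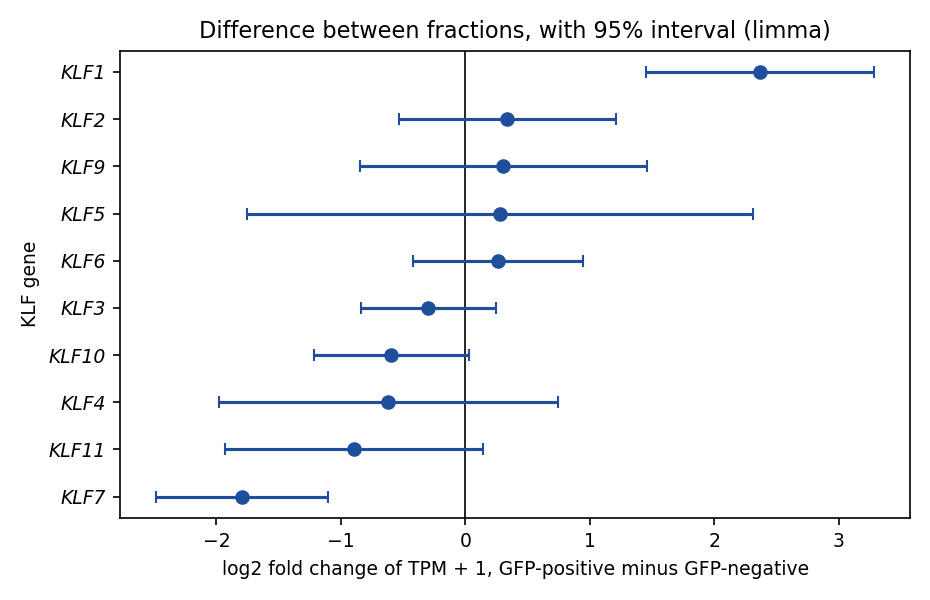
Log2 fold change of TPM + 1 between the fractions for the 10 KLF genes (horizontal axis, GFP-positive minus GFP-negative); points are limma estimates over 4 libraries and bars their 95% intervals, not adjusted for the number of genes. The intervals of KLF1 (1.45 to 3.28) and KLF7 (-2.48 to -1.10) lie apart from 0, and those of the other members include 0.

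KLF2, which drives the anti-inflammatory programme of endothelium under flow (ENSG00000127528), was the most abundant member in every library. It stood at 219 and 389 TPM in GFP-positive replicates 1 and 2 and at 173 and 307 TPM in GFP-negative replicates 1 and 2. The replicate 2 library was 1.77-fold above the replicate 1 library in either fraction, and the fractions overlapped. The log2 fold change was 0.34 ± 0.36 (SE; 95% interval -0.53 to 1.21; limma adjusted p = 0.751). It turned slightly below 0, to -0.07, without GFP-positive replicate 2 and, separately, without GFP-negative replicate 1. The interval leaves room for a difference of either sign.

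KLF6, a factor induced by vascular injury (ENSG00000067082), was the next in level in both fractions and overlapped with KLF2 in each. It stood at 166 and 270 TPM in GFP-positive and 148 and 210 TPM in GFP-negative replicates 1 and 2. As for KLF2, replicate 2 was higher than replicate 1 in either fraction, by 1.63-fold and 1.42-fold. The log2 fold change was 0.26 ± 0.28 (SE; 95% interval -0.42 to 0.94; limma adjusted p = 0.756), and it was -0.09 without GFP-positive replicate 2. Together KLF2 and KLF6 made up most of the summed TPM of the 10 members, KLF2 from 32.4% to 48.0% and KLF6 from 27.7% to 33.4% in a library.

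KLF4, which overlaps with KLF2 in endothelium and is also a reprogramming factor of pluripotency (ENSG00000136826), was far less abundant. It stood at 5.13 and 14.8 TPM in GFP-positive and 10.7 and 18.6 TPM in GFP-negative replicates 1 and 2. Here too replicate 2 was above replicate 1, by 2.89-fold in GFP-positive and 1.74-fold in GFP-negative cells. The log2 fold change was -0.62 ± 0.56 (SE; 95% interval -1.98 to 0.74; limma adjusted p = 0.697), and without GFP-positive replicate 1 it was 0.07. Per length, KLF2 was 42.7 and 26.2 times as abundant as KLF4 in the GFP-positive libraries and 16.2 and 16.5 times in the GFP-negative libraries.

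KLF2, KLF4 and KLF6 were the 3 members, of 10, that were higher in replicate 2 than in replicate 1 in both fractions. That is 30.0%, a share close to the 26.1% of all genes tested. KLF1 went the other way in both fractions, with a replicate 2 level 0.725 times that of replicate 1 in each. KLF2, KLF4 and KLF6 are also known as early response genes of handling and stress, so a list of 32 immediate early and dissociation response genes was set beside them. Of its 30 tested genes, 11 were higher in replicate 2 in both fractions (36.7%), with a median log2 difference of 0.00 in GFP-positive and 0.09 in GFP-negative cells. Its members differed: FOS, a component of AP-1, stood at 178 and 131 TPM in GFP-positive and 124 and 131 TPM in GFP-negative replicates 1 and 2, while JUND stood at 191 and 289 TPM and at 243 and 343 TPM. Both were named after their values were seen. The part of cell handling in the KLF levels was not tested. Between the fractions, 0 of the 30 genes passed in limma and 15 lay above 0, with a median log2 fold change of -0.02. The median hides differences in both directions. Both GFP-positive libraries lay above the GFP-negative range for 12 of the 30 and below it for 11, against 22.8% and 21.5% of all genes.

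**Figure D3:**
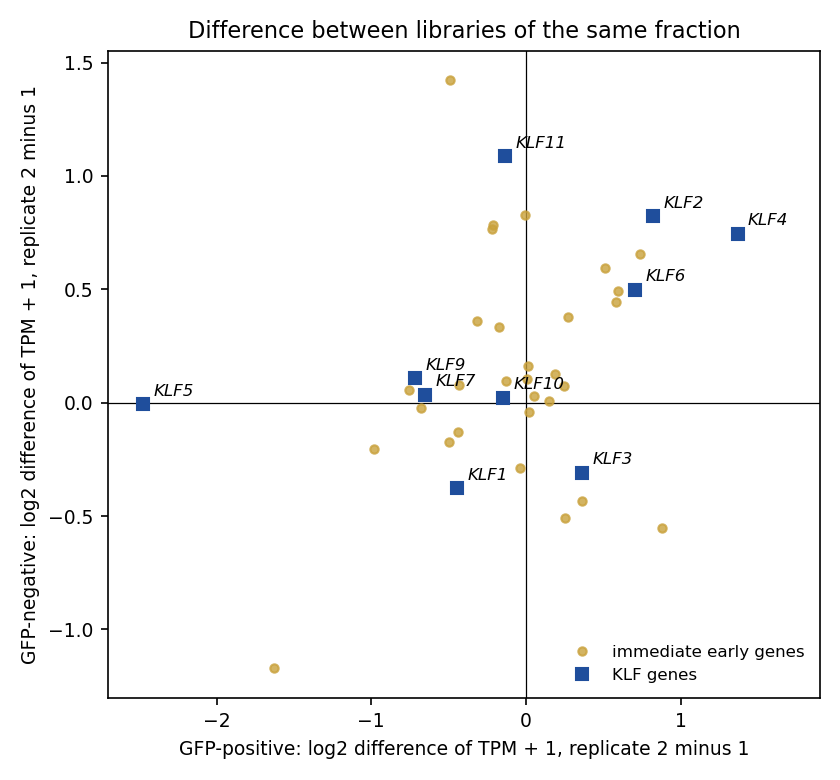
Log2 difference of TPM + 1 between replicate 2 and replicate 1, within GFP-positive cells (horizontal axis) and within GFP-negative cells (vertical axis); blue squares are the 10 KLF genes and yellow circles 30 immediate early genes. KLF2 (0.82 and 0.82), KLF4 (1.37 and 0.75) and KLF6 (0.70 and 0.50) lie in the upper right, and KLF5 (-2.47) lies far to the left.

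KLF10 and KLF11, the TGF-beta early response members, were both lower in GFP-positive cells without passing. KLF10 (ENSG00000155090) stood at 19.7 and 17.7 TPM against 28.5 and 29 TPM, with libraries that were close within each fraction. Its log2 fold change was -0.59 ± 0.26 (SE; 95% interval -1.22 to 0.03; limma adjusted p = 0.376), and it stayed between -0.67 and -0.52 with any library left out. KLF11 (ENSG00000172059) stood at 12.8 and 11.5 TPM against 15.7 and 34.6 TPM, and its GFP-negative libraries lay further apart than the fraction means did. Its log2 fold change of -0.89 ± 0.43 (SE; 95% interval -1.93 to 0.14; limma adjusted p = 0.417) was -0.35 without GFP-negative replicate 2. The ratio of KLF10 to KLF11 was 1.55, 1.54 and 1.81 in the other libraries and 0.838 in GFP-negative replicate 2.

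Other genes of the early TGF-beta response, a list of 16, included 2 that fell in limma, ID1 and ID3, and 0 that rose. Of all genes, 0.324% fell and 0.123% rose. ID1 and ID3 are also targets of bone morphogenetic proteins. ID3 stood at 247 and 290 TPM against 675 and 613 TPM (limma adjusted p = 0.0403), and ID1 at 179 and 195 TPM against 410 and 422 TPM (limma adjusted p = 0.0413). ID1 missed with each library left out (limma adjusted p = 0.0597 to 0.121), whereas for ID3 limma gave adjusted p = 0.0582 if GFP-positive replicate 1 was dropped, 0.117 if GFP-negative replicate 1 was, and passed the gene if either of the others was. ID2, of the same family, went the other way without passing, at 410 and 418 TPM against 268 and 216 TPM (log2 fold change 0.78; limma adjusted p = 0.107). TGFB1, the ligand itself, stood at 399 and 462 TPM against 391 and 394 TPM. The list had a median log2 fold change of -0.24, with 6 of 16 genes above 0. Both GFP-positive libraries lay below the GFP-negative range for 8 genes and above it for 4, against 21.5% and 22.8% of all genes.

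KLF3, the CtBP-dependent repressor (ENSG00000109787), was the third most abundant member in either fraction. It stood at 49.9 and 64.6 TPM in GFP-positive and 78.2 and 62.9 TPM in GFP-negative replicates 1 and 2, and the fractions overlapped. The log2 fold change was -0.30 ± 0.22 (SE; 95% interval -0.84 to 0.24; limma adjusted p = 0.623). KLF3 and KLF1 bind the same kind of CACCC site in red cells. The ratio of KLF1 to KLF3 was 0.62 and 0.347 in GFP-positive and 0.0646 and 0.0582 in GFP-negative libraries, so KLF3 was the more abundant per length in each. Corepressors, coactivators and turnover factors of KLF proteins, 27 in all, had 0 calls in limma and a median of 0.06, and CTBP1 stood at 141 and 161 TPM against 139 and 144 TPM.

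KLF5, a factor of epithelium and smooth muscle (ENSG00000102554), had the widest spread among the members. It stood at 12.2 and 1.38 TPM in GFP-positive replicates 1 and 2, against 3.64 and 3.62 TPM in GFP-negative cells. The GFP-negative libraries thus lay between the GFP-positive ones. The log2 fold change of 0.28 ± 0.83 (SE; 95% interval -1.76 to 2.31; limma adjusted p = 0.931) was 1.51 when GFP-positive replicate 2 was left out and -0.96 when GFP-positive replicate 1 was, so a single library set its sign. KLF9, a factor induced by glucocorticoids (ENSG00000119138), was as low, at 7.24 and 4.01 TPM against 4.01 and 4.40 TPM. Its log2 fold change was 0.30 ± 0.47 (SE; 95% interval -0.85 to 1.46; limma adjusted p = 0.851), and -0.05 without GFP-positive replicate 1. If a step is a read, its transcript of 5175 bases had 59.5 and 21.9 reads in GFP-positive and 36.2 and 31.6 reads in GFP-negative libraries. Among 16 glucocorticoid and circadian genes, 0 passed in limma and 9 lay above 0, and FKBP5, a target of the glucocorticoid receptor, stood at 84.5 and 79.9 TPM against 41.8 and 53.2 TPM (limma adjusted p = 0.176).

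Ordered by mean level in GFP-positive cells, the members ran KLF2, KLF6, KLF3, KLF1, KLF7, KLF10, KLF11, KLF4, KLF5 and KLF9, from 304 to 5.63 TPM. Neighbours in that order did not overlap at KLF6 and KLF3, KLF3 and KLF1, and KLF10 and KLF11, and overlapped elsewhere. In GFP-negative cells the order was KLF2, KLF6, KLF3, KLF7, KLF10, KLF11, KLF4, KLF1, KLF9 and KLF5, from 240 to 3.63 TPM. There the steps without overlap were from KLF6 to KLF3, KLF7 to KLF10, KLF4 to KLF1 and KLF9 to KLF5. The summed level of the members was 547 and 811 TPM in GFP-positive and 535 and 743 TPM in GFP-negative replicates 1 and 2, so it differed more between replicates than between fractions.

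The rest of the family was set beside these 10. Of 17 other KLF and SP genes, SP factors being relatives with the same kind of fingers, 12 were tested, 0 passed in limma and 5 lay above 0, with a median log2 fold change of -0.03. KLF13 was the most abundant of the other KLF genes, at 57.1 and 50.2 TPM against 46.4 and 74.6 TPM. SP6 was the most abundant SP gene, at 96.8 and 102 TPM against 158 and 164 TPM (log2 fold change -0.70; limma adjusted p = 0.122). KLF14 was listed at 0 in all 4 libraries. KLF15 stood at 3.45 and 0.74 TPM against 0.22 and 0.28 TPM and did not pass the filter on low values.

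Upstream of KLF2 and KLF4, 17 genes of the kinase cascade, MEF2 factors and their regulators had 0 calls in limma and a median log2 fold change of 0.09, with 11 above 0. Both GFP-positive libraries were above the GFP-negative range for 3 of the 17 and below it for 4, against 22.8% and 21.5% of all genes. MEF2C, a transcription factor that binds the MEF2 consensus, stood at 59.6 and 47.7 TPM against 122 and 123 TPM (log2 fold change -1.18; limma adjusted p = 0.0674). PIEZO1, a mechanosensitive channel, stood at 153 and 209 TPM against 301 and 300 TPM (log2 fold change -0.74; limma adjusted p = 0.159). These 2 were among the 4 that lay below. PDCD10, a gene of the cerebral cavernous malformation complex, was among the 3 above, at 120 and 122 TPM against 93.6 and 69.8 TPM (log2 fold change 0.57; limma adjusted p = 0.278). So was the kinase gene MAP3K3, which encodes MEKK3 and was named after its values were seen, at 89.1 and 88.8 TPM against 80.4 and 74.6 TPM.

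Of 23 endothelial genes known to be induced by KLF2 or KLF4, 18 were tested and 0 passed in limma. The median log2 fold change was -0.48, with 4 genes above 0 and 14 below, and 11 had both GFP-positive libraries below both GFP-negative ones, against 21.5% of all genes. Textbook targets were named after their values were seen. THBD, the anticoagulant receptor thrombomodulin, stood at 47.8 and 75.1 TPM against 141 and 161 TPM (limma adjusted p = 0.0983), and NOS3, endothelial nitric oxide synthase, at 185 and 155 TPM against 219 and 179 TPM (limma adjusted p = 0.636). The 13 endothelial markers, of which TEK is also on this list, were lower too, with 0 above 0 and a median of -1.09, and their part in these values was not tested. Of 15 genes that KLF2 or KLF4 represses, 13 were tested, 0 passed in limma and 5 lay above 0, with a median of -0.15 that turned to 0.14 when GFP-positive replicate 1 was left out, or 0.10 when GFP-negative replicate 2 was. APLN, the ligand of the apelin receptor, had the lowest log2 fold change of the list, at 48.9 and 83.5 TPM against 240 and 245 TPM (log2 fold change -1.91; limma adjusted p = 0.0541).

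Of 40 red cell genes known as targets of KLF1, 31 were tested. In limma 2 rose and 0 fell, against 0.123% and 0.324% of all genes. The median log2 fold change was 0.17, with 21 genes above 0. Both GFP-positive libraries lay above the GFP-negative range for 15 genes and below it for 6, against 22.8% and 21.5% of all genes. HBG2, a fetal gamma-globin, stood at 90.6 and 45.7 TPM against 2.27 and 2.11 TPM (log2 fold change 4.36; limma adjusted p = 0.0316). KEL, the Kell blood group protein, stood at 97.9 and 115 TPM against 11.3 and 12.9 TPM (log2 fold change 3.03; limma adjusted p = 0.0316). HBG2 and KEL kept an adjusted limma p under 0.05 whichever library was dropped, but neither they nor ID1 and ID3 passed with pseudocount 0.1, without a filter or without a variance trend, where 0 of all genes passed. Reads of HBG2 may be shared with the near-identical HBG1. Other targets went the opposite way: ADD2, a subunit of adducin in the red cell skeleton, stood at 3.06 and 3.35 TPM against 26.8 and 17.6 TPM (log2 fold change -2.44; limma adjusted p = 0.0756). HBB, the adult beta-globin gene that KLF1 is best known for, was listed at 0 in all 4 libraries. The erythroid marker list shares HBG2 and KEL with these targets.

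**Figure D4:**
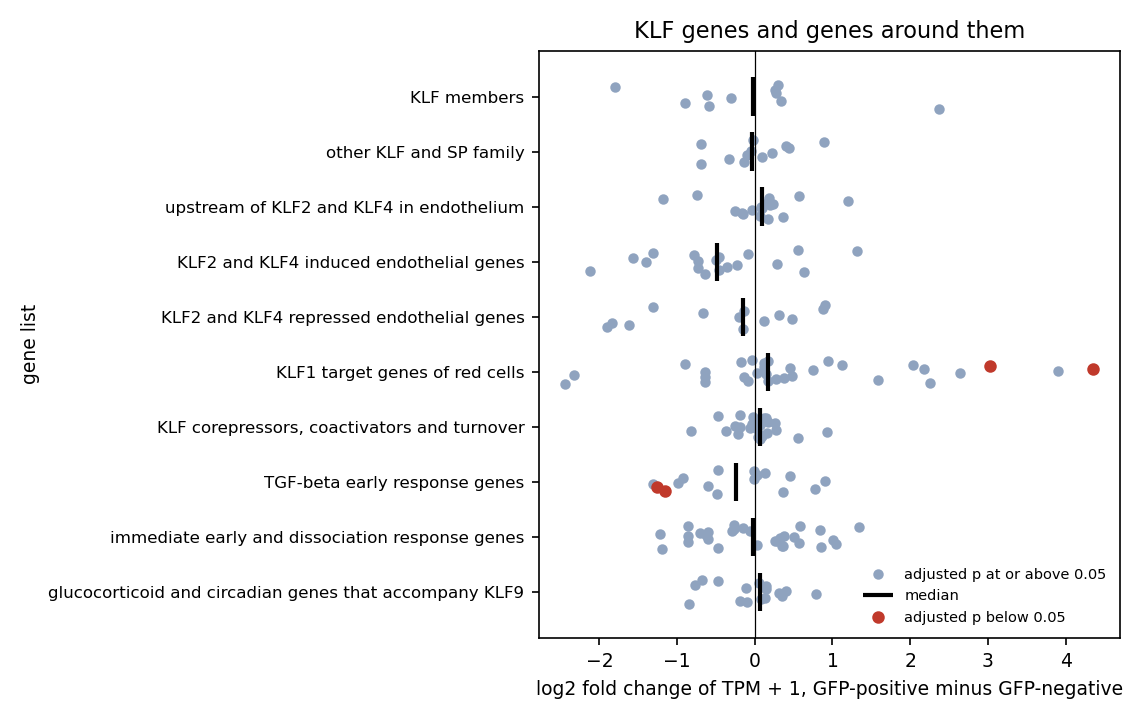
Log2 fold change of TPM + 1 between the fractions for the KLF genes and for the genes of 9 lists around them; each point is a tested gene, red points passed a limma adjusted p of 0.05, and black bars are list medians. The KLF1 targets reach from -2.44 to 4.36, and 14 of 18 genes induced by KLF2 or KLF4 lie below 0.

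For each member, genes with the most similar pattern were those whose log2(TPM + 1), centred on its own mean, had the smallest Euclidean distance to that of the member over the 4 libraries, among genes with a mean of at least 5 TPM. KLF1 was closest to FGFBP3 (distance 0.23; 207 and 150 TPM against 38.8 and 35.4 TPM), PCSK2 (0.24) and MYB (0.30). KLF7 was closest to ZNF415 (0.24), FZD4 (0.24) and FAM198B (0.26), each lower in both GFP-positive libraries than in either GFP-negative library. KLF2 was closest to ALG12 (0.02; 18.0 and 32.6 TPM against 14.1 and 26.0 TPM), CD33 (0.08) and SYVN1 (0.11), which like KLF2 were higher in replicate 2 of each fraction. KLF4 was closest to ASNS (0.17), ITGA6 (0.18) and DUOX1 (0.19), and KLF6 to EHBP1 (0.03), MCOLN1 (0.07) and ZNF707 (0.07). KLF10 was closest to CDS2 (0.02) and KLF3 to PCDHGB4 (0.04), while the nearest gene of KLF9 was ZNF169 (0.04), of KLF11 RP11-705O3.1 (0.14) and of KLF5 ZNF350 (0.25). These genes were picked from 11736 as the nearest in only 4 values, so a small distance is a description.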

How the data were processed

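RNA from 2 GFP-positive and 2 GFP-negative libraries was measured by RNA-seq, and the sample titles gave groups and replicate numbers. TPM values were deposited in a separate table for each library. The file headers name the library only, and the unit was read from the values, which sum to 996323.64 to 997292.9 in each library. Bowtie and RSEM, and the builds hg19 and mm10, are named without roles or versions, per the submitters' processing notes. The annotation is not given in the sources used here. A test on counts did not apply, because the tables hold TPM.

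Limma 3.58.1 in R 4.3.3 was fitted to log2(TPM + 1) of all 4 libraries, with a variance trend and no covariates, keeping genes that reached 1 TPM in 2 or more libraries. Two-sided p-values were adjusted over 15425 genes by the Benjamini-Hochberg method. Fold changes on this scale understate those of low genes. The procedure was tested on simulated data, with changes set only in genes with a mean log2(TPM + 1) above 3. KLF5 and KLF9 lay below that level, so the recovery does not cover them. Noise was drawn as normal with the variances that limma fitted, which are drawn towards a trend over genes. Recovery may thus be lower for genes with a wider spread. Limma recovered 25.4% of changes at a log2 fold of 1, 88.2% at 2 and 99.3% at 3, so most smaller differences would be missed. Read steps were fitted to TPM times length of genes with a single GENCODE release 29 transcript over 1500 bases. Between 64.4% and 67.5% of low values came within 0.15 of a whole number of steps (30.0% if evenly spread), with the step fitted to the same values.

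The members, the lists and the tests were chosen with earlier results of these data known. List symbols were matched through a table of gene names, older symbols included. Genes named from a list were those past the threshold, the 2 with the highest mean TPM and the 2 with the largest fold change on each side, of which the text gives some; exceptions are stated, and CTBP1, HBB, KLF14 and KLF15 were chosen after their values were seen. Alternatives were pseudocount 0.1, other filters and scalings, no variance trend, the replicate block, summed rows and each library left out.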

Additional observations from a re-analysis of the deposited data

How the results depend on the processing

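KLF1 stayed above 0 and KLF7, KLF3, KLF10 and KLF11 below 0 in all 12 alternatives, with KLF1 from 2.14 to 2.59 and KLF7 from -2.12 to -1.47. KLF2, KLF4, KLF5, KLF6 and KLF9 each turned sign with at least 1 library left out, and in no other setting run. With a mean above 5 TPM, 2 members (KLF1 and KLF7) passed in limma, with 50 genes higher and 114 lower. Over all genes limma passed 19 higher and 50 lower. It passed 0 in either direction with pseudocount 0.1 (2101 at an unadjusted p under 0.05), without a filter (2230) and with no variance trend (2072). Leaving out single libraries, 10 to 36 genes passed higher, 1 to 48 lower, and 0 to 1 members. The cause was not tested. With the replicate number as a block, limma passed 228 genes higher, 368 lower and 2 members, KLF1 (adjusted p = 0.0115) and KLF7 (0.00673). The labels do not say that a number marks a shared culture, and deviations of same-numbered libraries correlated at 0.072 across genes, so the pairing is not established. The GFP-negative KLF1 values rest on an estimated 14.2 and 8.1 reads, which limits their precision, and the reads behind KLF4 and KLF5 were not estimated.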
